A study of Homo sapiens with 6 samples.

Results

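The 10 genes described here are the alpha-like globin genes HBZ, HBM, HBA2, HBA1 and HBQ1 and the beta-like globin genes HBE1, HBG2, HBG1, HBD and HBB. They were chosen by their symbols, through the NCBI Gene identifiers of the count tables, and all 10 were found among 25702 identifiers. The RNA came from K562, an established line grown from a chronic myeloid leukaemia, which carries out part of the erythroid programme. All cells were transiently transfected with a pCMV-HA plasmid, in which a viral promoter drives an HA-tagged insert. The plasmid was empty in the EV group, and carried MXD3, a repressor that opposes MYC, or the leukaemia fusion STIM1::MXD3 in the other groups. There were 2 libraries in each of the 3 groups. The study calls them independent transfections and biological replicates, and p-values measure only the spread between these libraries. No other treatment was given. The labels name no sorting of transfected cells, so cells without plasmid may be included.

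Haemoglobin is assembled from alpha-like and beta-like chains, and each kind is encoded by a cluster in which the genes stand roughly in the order of their use during development. The alpha cluster, on chromosome 16, holds the embryonic zeta gene HBZ and the fetal and adult genes HBA2 and HBA1, and the beta cluster, on chromosome 11, runs from embryonic epsilon (HBE1) through fetal gamma (HBG2, HBG1) to adult delta (HBD) and beta (HBB). Distant enhancers shared within a cluster, bound by erythroid factors such as GATA1 and KLF1, drive these genes, and K562 cells are known for making embryonic and fetal rather than adult haemoglobin.

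HBA1 with HBA2, and HBG1 with HBG2, are near-identical copies, so the counts of a single copy depend on how reads shared by both were handled, which the sources used here do not give. In the GRCh37 reference, the coding sequences of HBA1 and HBA2 were 100% identical, and the transcripts differed only after the coding sequence, at 19 mismatches and 1 gap. Of all stretches of 150 bases in the HBA1 mRNA, 77.3% were found whole in HBA2. The HBG1 and HBG2 coding sequences were 99.55% identical, and 37.2% of the 150-base stretches of HBG1 were found whole in HBG2. Their coding sequences differed at C227T and C410G, with the HBG1 base first and positions counted from 1 at the first coding base. The second change is the one that distinguishes the A-gamma and G-gamma chains. After the coding sequence the gamma transcripts also differed, at 2 mismatches and 1 gap. The coding stretches are shown because the gamma copies of the reference differ within them. Whether both bases also differ between the copies in K562 is not known here. The capital marks the differing base.
HBG1, coding bases 197 to 257 (GRCh37, chr11:5270656-5270716, minus strand): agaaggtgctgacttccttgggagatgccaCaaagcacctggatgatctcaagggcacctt
HBG2, coding bases 197 to 257 (GRCh37, chr11:5275580-5275640, minus strand): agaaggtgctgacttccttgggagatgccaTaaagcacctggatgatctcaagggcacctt
HBG1, coding bases 380 to 440 (GRCh37, chr11:5269593-5269653, minus strand): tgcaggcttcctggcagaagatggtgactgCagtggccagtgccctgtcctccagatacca
HBG2, coding bases 380 to 440 (GRCh37, chr11:5274511-5274571, minus strand): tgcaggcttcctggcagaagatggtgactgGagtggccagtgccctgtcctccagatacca
These are reference sequences, and the alleles of K562 were not analysed here. Because of these shared sequences, each pair was also analysed as the sum of its copies, and a single copy's value is uncertain. If shared reads were dropped rather than split between copies, the sums would be too low as well. By the stretches given above, this could lower the alpha sum more than the gamma sum. Exons of HBE1, HBG1 and HBG2 are also covered by read-through genes on the same strand in the GENCODE annotation, those of HBZ in part by HBM on the same strand, and those of HBA1 and HBA2 by genes on the other strand. The use of strand in counting is not given in the sources used here.

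The libraries held 53048343 to 63835779 counts, with 17375 to 17836 genes detected, and mitochondrial genes took 1.45% to 3.73% of the counts. MXD3, the gene carried by both expression plasmids, was counted 475 and 708 times in EV, 162144 and 121430 times in MXD3, and 108269 and 116263 times in STIM1::MXD3. All 10 erythroid markers listed were detected in each library, among them TFRC, the transferrin receptor, at 1100 to 1610 counts-per-million (CPM) and ALAS2, the erythroid enzyme that starts haem synthesis, at 146 to 192 CPM. The platelet gene GP9, the neutrophil gene S100A8 and the B cell gene MS4A1 had no count in any library. Other members of the same lists were detected, among them TUBB1 at 55.4 to 79.3 CPM, ITGA2B at 17.9 to 28.6, LYZ at 21.2 to 27.0, CD33 at 13.0 to 22.0 and CD3D at 13.4 to 19.8 CPM (named after their values were seen). In these bulk libraries, fewer cells of a type and less RNA per cell cannot be told apart.

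Most globin RNA in the K562 libraries came from the embryonic and fetal genes. The 10 globin genes together took 0.530% to 0.719% of all counts, and HBE1 alone ranked 5 of 25702 identifiers by mean CPM. Levels of different genes are compared as CPM per kilobase (kb) of the reference mRNA. By the mean over 6 libraries, HBE1 came first at 6690 CPM per kb, followed by HBG2 at 2375, HBG1 at 508, HBZ at 295, HBA2 at 148, HBA1 at 95.4, HBQ1 at 71.3, HBD at 8.07, HBB at 0.878 and HBM at 0.146 CPM per kb. HBG1 and HBZ overlapped in their ranges over libraries, as did HBA2 and HBA1, and HBA1 and HBQ1, whereas all other neighbours in this order had separate ranges. The places of HBG2, HBG1, HBA2 and HBA1 depend on how reads shared by the copies were counted.

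**Figure D1:**
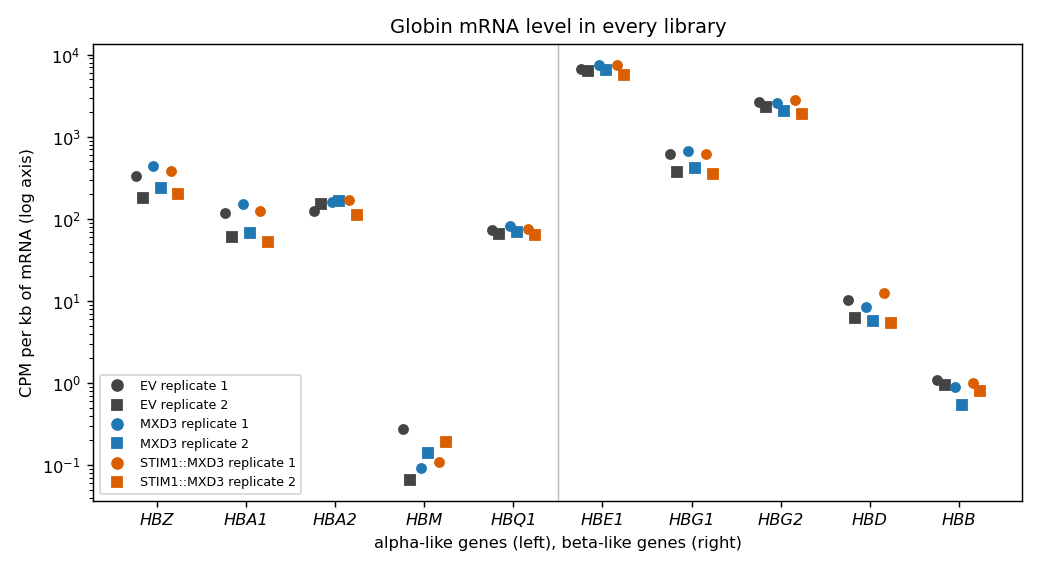
Levels of the 10 globin genes in each of the 6 libraries, as CPM per kb of reference mRNA on a log axis, with 1 point per library and the EV, MXD3 and STIM1::MXD3 groups marked. HBE1 lies highest, between 5695 and 7540 CPM per kb in the 6 libraries, and HBB and HBM lie lowest.

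HBE1, the embryonic beta-like chain, was at 4118 and 3930 CPM in EV, 4638 and 4077 CPM in MXD3, and 4697 and 3548 CPM in STIM1::MXD3 (replicates 1 and 2 in each). Its highest library was 1.32 times its lowest. HBG2, the G-gamma chain of fetal haemoglobin, was at 1559 and 1341 CPM in EV, 1527 and 1193 CPM in MXD3, and 1633 and 1097 CPM in STIM1::MXD3. HBG1, the A-gamma chain, was at 364 and 217 CPM in EV, 392 and 244 CPM in MXD3, and 367 and 205 CPM in STIM1::MXD3. For all of these genes replicate 2 lay below replicate 1 within each group, and the groups overlapped.

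The adult beta-like genes were expressed at a much lower level. HBD, the delta chain of the minor adult haemoglobin, was at 6.40 and 3.80 CPM in EV, 5.23 and 3.54 CPM in MXD3, and 7.68 and 3.36 CPM in STIM1::MXD3. HBB, the adult beta chain, was counted 35 and 36 times in EV, 36 and 19 times in MXD3, and 34 and 32 times in STIM1::MXD3, so its level rests on few counts. HBD and HBB together made up 0.069% to 0.120% of the beta-like level per kb, against 66.8% to 72.7% for HBE1 and 27.2% to 33.1% for both gamma genes.

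In the alpha cluster, HBZ, the embryonic zeta chain, was at 263 and 145 CPM in EV, 354 and 188 CPM in MXD3, and 304 and 160 CPM in STIM1::MXD3. HBA2 was at 72.6 and 87.9 CPM in EV, 91.6 and 95.6 CPM in MXD3, and 98.7 and 63.9 CPM in STIM1::MXD3. HBA1, which encodes the same alpha chain, was at 67.2 and 34.4 CPM in EV, 88.4 and 38.6 CPM in MXD3, and 71.8 and 29.8 CPM in STIM1::MXD3. HBZ and HBA1 were thus lower in replicate 2 of every group, while HBA2 was higher in replicate 2 of EV and MXD3 and lower in replicate 2 of STIM1::MXD3.

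HBQ1, the theta gene, whose product is not known to be part of a haemoglobin, was at 39.1 and 34.2 CPM in EV, 42.8 and 36.6 CPM in MXD3, and 40.0 and 33.2 CPM in STIM1::MXD3. It varied least of the family, with a highest library 1.29 times its lowest. HBM, the mu gene, had 7 and 2 counts in EV, 3 and 4 counts in MXD3, and 3 and 6 counts in STIM1::MXD3. The exact 95% Poisson intervals of these counts cover counting error only and take counts as independent. How read pairs were counted is not given in the sources used here. The intervals ran from 0.242 to 7.22 for the lowest library and from 2.81 to 14.4 for the highest, so a difference in HBM was not detectable at this depth. HBZ made up 39.6% to 53.0% of the alpha-like level per kb and both alpha genes together 37.3% to 46.3%. If reads shared by HBA1 and HBA2 were dropped in counting, the share of HBZ would be too high.

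The MXD3 plasmid was compared with EV to ask whether the repressor changed the globin genes. Of the 9 globin genes with enough counts to be tested (HBM was not), none passed an adjusted p under 0.05 in edgeR's quasi-likelihood test, and 0.00648% of the 15431 genes tested did. In this edgeR test, which did not use the replicate number, no globin gene had an unadjusted p under 0.05, against 1.86% of all genes tested. DESeq2 called none, against 0.0194%. The largest positive difference was that of HBZ, at 0.41 ± 0.43 on the log2 scale (SE; edgeR adjusted p = 0.999), and HBZ was higher in MXD3 by 0.43 within replicate 1 and by 0.38 within replicate 2. With the replicate number as a block its difference was 0.40 ± 0.08 and passed (adjusted p = 0.0482 in edgeR and 0.00149 in DESeq2). With the block, 0.292% of all genes tested passed in edgeR and 1.57% in DESeq2. HBA1 differed by 0.32 ± 0.54 and HBA2 by 0.22 ± 0.21, and the sum of these copies by 0.26 ± 0.28 (95% confidence interval -0.41 to 0.93). HBE1 differed by 0.11 ± 0.16, HBQ1 by 0.11 ± 0.16 and HBG1 by 0.13 ± 0.37.

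In the same comparison HBG2 stood at -0.09 ± 0.22, HBD at -0.21 ± 0.45 and HBB at -0.51 ± 0.50, and the gamma sum at -0.05 ± 0.24. Thus 6 of the 9 genes tested were higher in MXD3 within both replicate numbers, as were 30.6% of all genes tested, and 3 were lower within both, as were 31.5% of all genes tested. The median over the 9 was 0.12, against 0.0011 over all genes. Both MXD3 libraries lay above both EV libraries for HBA2 and below them for HBB, and for the other members the groups overlapped. Of all genes tested, 31.0% had groups that did not overlap.

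For STIM1::MXD3 against EV, which shares the EV libraries, the 9 globin genes had log2 differences from -0.18 for HBB to 0.19 for HBZ. None of the 9 passed the edgeR test, against 0.00648% of all genes tested. Without the replicate block, none had an unadjusted p under 0.05 in edgeR, against 0.953%, and DESeq2 called none, against 0.0194%. HBZ differed by 0.19 ± 0.43, HBE1 by 0.03 ± 0.16 and HBG2 by -0.09 ± 0.22. The alpha sum differed by 0.01 ± 0.28 and the gamma sum by -0.08 ± 0.24. All of these genes had overlapping groups, and 22.0% of all genes tested had groups that did not overlap.

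The fusion was then compared with MXD3 directly. None of the 9 globin genes was called by edgeR, against 0% of all genes tested, and none by DESeq2, against 0.00648%. Without the replicate block, none had an unadjusted p under 0.05 in edgeR, against 1.01%. The groups overlapped for all 9, and 21.1% of all genes tested had groups that did not overlap. HBZ differed by -0.22 ± 0.43 (-0.22 within replicate 1 and -0.23 within replicate 2), HBA1 by -0.32 ± 0.54 and HBD by 0.33 ± 0.45. The sums differed by -0.25 ± 0.28 for alpha and -0.02 ± 0.24 for gamma. A p that misses the threshold does not show that the plasmids act alike. The edgeR fit used here did not include the replicate number. Its 95% confidence intervals for the 9 genes reached 0.384 on either side of the estimate for the narrowest and 1.28 for the widest. Changes up to these sizes could not be told from none in that fit. With the replicate number as a block, the SE in edgeR was 0.0795 for HBZ, 0.101 for HBA1 and 0.0811 for HBG1, but 0.54 for HBB.

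**Figure D2:**
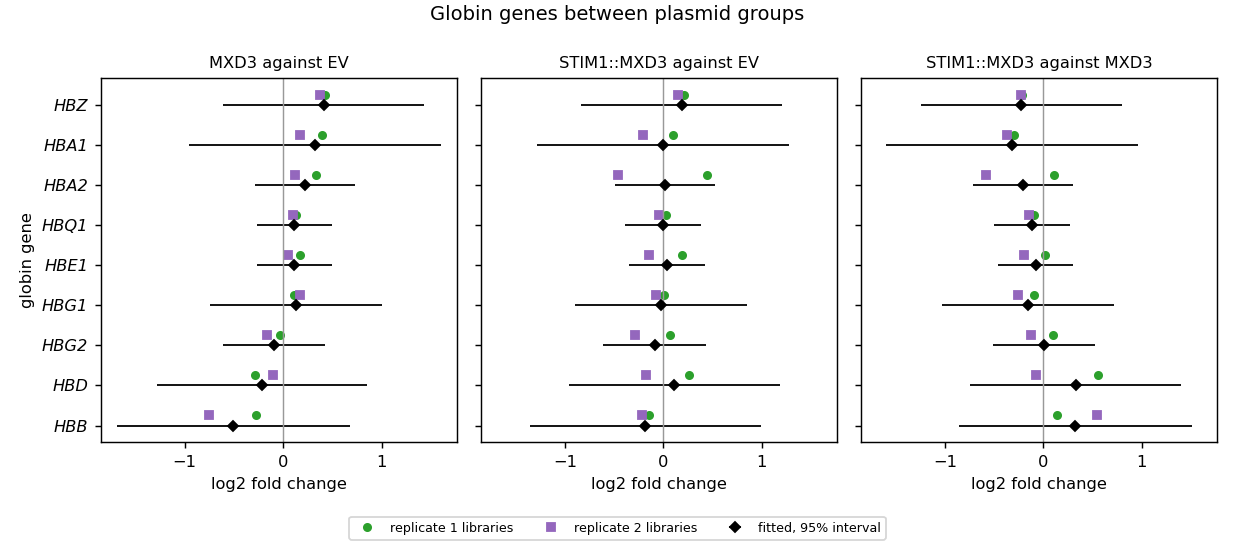
Log2 difference of each of the 9 tested globin genes in the 3 plasmid comparisons, with diamonds for the edgeR estimates, bars for their 95% confidence intervals, and circles and squares for the differences within replicate 1 and replicate 2. The fit did not include the replicate number. Every interval of this fit includes 0, and that of HBZ in MXD3 against EV runs from -0.61 to 1.43.

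The globin values also differed by replicate number. Over all genes, the first principal component, with 42.8% of the variance, put every replicate 2 library on the other side of replicate 1 of its group. The labels say nothing of what the number stands for, so it cannot be called a culture or a sequencing batch. Replicate 2 was therefore compared with replicate 1 in an edgeR fit that held the plasmid group as a term, with 3 libraries on each side. This comparison was added after the values had been seen.

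Of the 9 globin genes tested, 7 were lower in replicate 2 and none was higher (adjusted p under 0.05, edgeR), against 29.2% of all genes called in either direction and 16.1% called lower. HBA1 was lowest relative to replicate 1, by 1.14 ± 0.08 on the log2 scale below it (0.453 of its level; adjusted p = 8.96e-07). HBZ stood at 0.536 of its replicate 1 level (adjusted p = 8.96e-07), HBD at 0.560 (adjusted p = 0.00178) and HBG1 at 0.592 (adjusted p = 2.95e-06). HBG2 stood at 0.767 (adjusted p = 0.00123). Every replicate 2 library lay below all replicate 1 libraries for the 7 genes, as for 20.6% of all genes tested.

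HBE1 stood at 0.859 of its replicate 1 level (adjusted p = 0.0235) and HBQ1 at 0.853 (adjusted p = 0.0459). These calls were the least firm. That of HBQ1 was lost when any 1 of the 6 libraries was left out, with adjusted p from 0.0812 to 0.209, and that of HBE1 without replicate 1 of MXD3 (0.0598), replicate 1 of STIM1::MXD3 (0.145) or replicate 2 of STIM1::MXD3 (0.231). The other 5 genes passed in every such fit. Without TMM scaling 5 globin genes were called, again without HBE1 and HBQ1.

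HBA2 and HBB did not pass. HBB differed by -0.40 ± 0.44 with adjusted p = 0.537. HBA2 differed by -0.10 ± 0.12 (adjusted p = 0.591), and its difference was 0.28 in EV, 0.06 in MXD3 and -0.63 in STIM1::MXD3, so that it was positive, at 0.17 and 0.19, when replicate 1 or replicate 2 of STIM1::MXD3 was left out, and negative and past the threshold, at -0.28, when either EV library was left out (adjusted p = 0.0189 without replicate 1 and 0.0201 without replicate 2). HBA1, with the same coding sequence, differed by -0.97, -1.19 and -1.27 in the 3 groups.

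Summed over its copies, alpha globin was lower in replicate 2 by 0.49 ± 0.10 on the log2 scale below replicate 1 (0.710 of its level; adjusted p = 0.00135), and gamma globin stood at 0.734 (adjusted p = 3.07e-04). Both sums were lower in replicate 2 of each group. The number of all genes called, 4499 with 6 libraries, was 2580 without replicate 1 of STIM1::MXD3 and 2902 without its replicate 2.

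**Figure D3:**
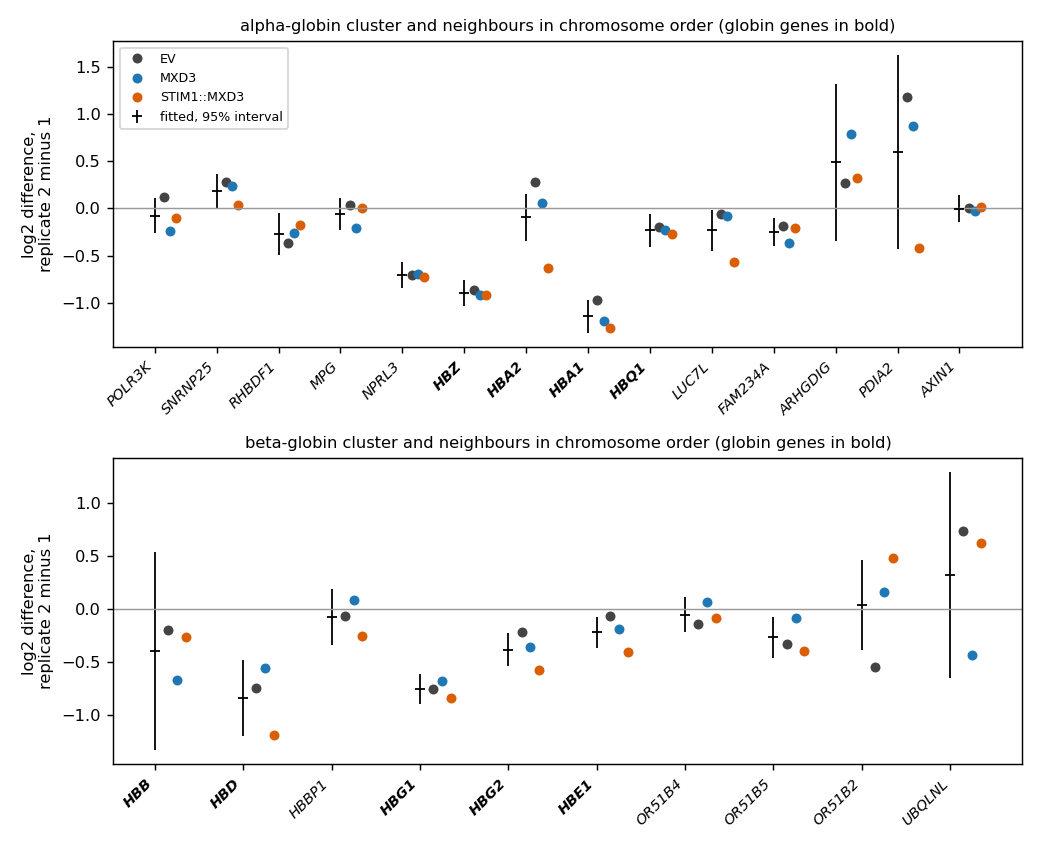
Log2 difference of replicate 2 against replicate 1 for the globin genes and their neighbours, ordered by start position within the alpha and the beta cluster, with a point for each plasmid group, and the edgeR estimate with its 95% confidence interval. NPRL3, HBZ, HBA1, HBD and HBG1 stand furthest below 0, and HBA2 has points on both sides of it.

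The share of each copy moved with the replicate number too. HBA1 made up 48.1% of the HBA1 and HBA2 counts in EV replicate 1 (95% Wilson interval 46.9% to 49.2%) and 28.1% in EV replicate 2 (27.1% to 29.2%). In MXD3 it made up 49.1% (48.2% to 50.01%) and 28.8% (27.8% to 29.8%), and in STIM1::MXD3 42.1% (41.1% to 43.1%) and 31.8% (30.6% to 33.0%). All 3 replicate 1 libraries thus lay above all 3 replicate 2 libraries, with means of 46.4% ± 3.78 and 29.6% ± 1.95 (SD, n = 3), and a two-sided exact permutation test gave p = 0.1, the smallest that 3 against 3 can give. The intervals cover counting error only and take counts as independent, while how read pairs were counted is not given.

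HBG1 made up 18.9%, 20.4% and 18.4% of the gamma counts in replicate 1 of EV, MXD3 and STIM1::MXD3, and 13.9%, 17.0% and 15.7% in their replicate 2. The ratio of the beta-like to the alpha-like level per kb was 15.3, 12.8 and 14.6 in replicate 1 and 19.6, 16.7 and 18.6 in replicate 2, in the same order of groups. Both measures had separate ranges for the replicate numbers (exact permutation p = 0.1 for each). Between plasmid groups, HBA1 share, HBG1 share and this ratio all overlapped, and an exact test of 2 against 2 libraries cannot give a p below 0.333. The shares and the ratio depend on how reads shared by the copies were counted.

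**Figure D4:**
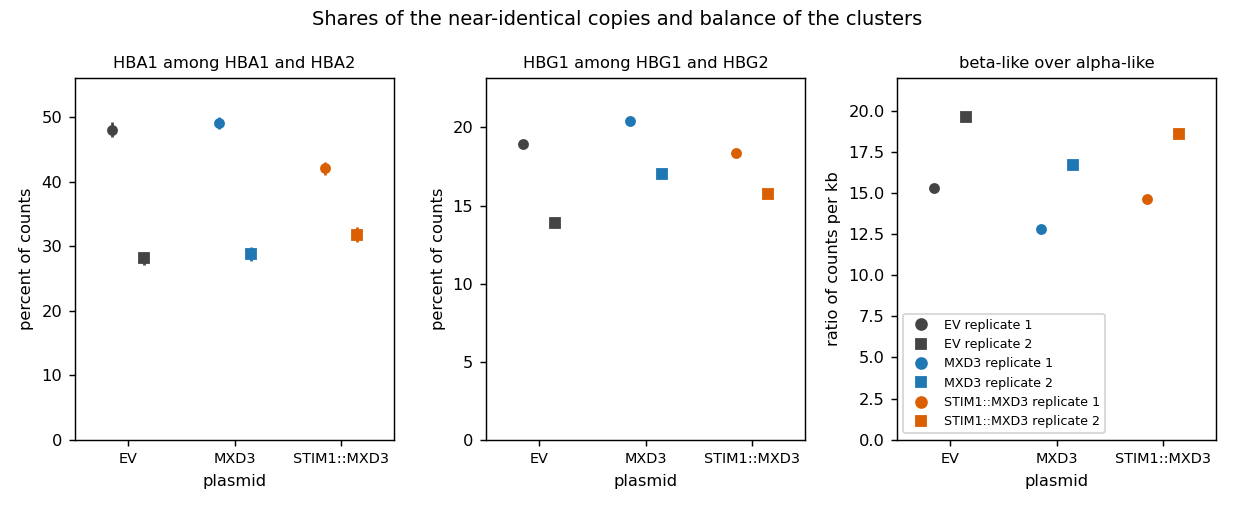
Composition of the globin RNA in each of the 6 libraries: HBA1 as a percent of HBA1 and HBA2 counts and HBG1 as a percent of HBG1 and HBG2 counts (bars are 95% Wilson intervals), and the ratio of the beta-like to the alpha-like level per kb. The 3 replicate 1 libraries lie above the 3 replicate 2 libraries in both shares and below them in the ratio.

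Other measures moved with the replicate number beside the globin genes. Among genes with 1 to 39 counts, 59.8% to 62.7% of the counts were even in replicate 1 and 64.5% to 67.3% in replicate 2. The summed level of the 10 erythroid markers was 2656 to 3089 CPM in replicate 1 and 2271 to 2482 CPM in replicate 2, with none at 0. Of these markers 4 were called lower (among them KLF1, GATA1 and ALAS2) and 1 higher (EPB42). Beside them, 16.1% of all genes were called lower and 13.1% higher. The part of these measures in the globin differences was not tested. With GC content and exon length offsets the same number of globin genes, 7, was called, and HBZ differed by -1.03.

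Among neighbours of the alpha cluster, NPRL3, whose introns hold the main alpha-globin enhancers, was at 172, 180 and 176 CPM in replicate 1 of EV, MXD3 and STIM1::MXD3 and at 106, 111 and 106 CPM in replicate 2. Its difference was -0.71 ± 0.07 (adjusted p = 4.73e-06, edgeR). FAM234A also passed, at -0.25 ± 0.07 (adjusted p = 0.0135), and the other 8 of 10 neighbours tested did not, among them MPG at -0.06 ± 0.08 and AXIN1 at -0.0038 ± 0.067. Of 5 neighbours tested in the beta cluster, OR51B5, an olfactory receptor gene, passed at -0.27 ± 0.09 (adjusted p = 0.0401), while the pseudogene HBBP1, which lies between HBD and HBG1, was at -0.08 ± 0.12. By replicate number 2 of 10 neighbours tested in the alpha cluster and 1 of 5 in the beta cluster were called, beside 29.2% of all genes. No neighbour was called in a plasmid comparison. HBBP1 was chosen for mention for its position, after its value was seen, as were MPG and AXIN1.

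Genes that activate the globin clusters were all expressed, and none of the 13 listed was called in any plasmid comparison. NFE2, KLF1, GATA1 and MAFG, the most abundant, had means of 279, 278, 274 and 256 CPM. NFE2 and MAFG form a dimer at the globin enhancers, KLF1 binds CACC boxes and GATA1 GATA sites. All 13 had negative differences for STIM1::MXD3 against EV, with a median of -0.14 against 0.0096 over all genes, and 10 of 13 for MXD3 against EV, with a median of -0.06. In edgeR without the block, none of the 13 had an unadjusted p under 0.05 in either comparison. Of all genes tested, 0.953% and 1.86% did. Both comparisons share the EV libraries, and the share of all genes with a negative difference is not given here.

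By replicate number, 4 of the 13 activators were lower in replicate 2 and 1 was higher, beside 16.1% of all genes called lower and 13.1% called higher. KLF1 differed by -0.55 ± 0.08 (adjusted p = 1.13e-04), ZFPM1, the GATA1 cofactor, by -0.50 ± 0.08, GATA1 by -0.24 ± 0.07 and NFE2 by -0.24 ± 0.06, whereas LMO2, a bridging subunit of the GATA1 complex, differed by 0.33 ± 0.08. MAFG, at 0.08 ± 0.06, did not pass. The list's median was -0.06, against 0.0062 over all genes.

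Repressors of the fetal globin genes were mostly expressed as well. Of 21 listed, 19 could be tested and none was called in a plasmid comparison. The most abundant were CHD4, the helicase of the NuRD complex, at a mean of 458 CPM, MYB at 343, the DNA methyltransferase DNMT1 at 338 and the deacetylase HDAC1 at 263 CPM. BCL11A, the main repressor of the gamma genes in adult cells, had 0 counts in all 6 libraries (named here after its value was seen). By replicate number 7 of 19 were called, beside 29.2% of all genes. MYB differed by -0.38 ± 0.07, KDM1A by -0.20 ± 0.07, RCOR1 by -0.23 ± 0.07 and ZNF410 by -0.31 ± 0.08, and MBD3, GATAD2A and NR2F2 were higher, at 0.30 ± 0.08, 0.23 ± 0.07 and 0.41 ± 0.07.

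Of 7 genes of the fetal programme, such as the RNA-binding proteins LIN28B and IGF2BP1, none was called in a plasmid comparison, and 2 of 7 were called by replicate number, beside 29.2% of all genes, both higher in replicate 2, LIN28B by 0.24 ± 0.07 and IGF2BP3 by 0.29 ± 0.08. Of 5 tested genes for globin assembly and haem sensing, none was called between plasmids. In replicate 2, EIF2AK1, the haem-regulated kinase that halts globin translation, was lower, at -0.45 ± 0.08, as were the haem-sensing repressor BACH1, at -0.58 ± 0.08, and NFE2L2, at -0.23 ± 0.07, while ATF4 was higher, at 0.21 ± 0.07. These calls, 3 lower and 1 higher of 5, stood beside 16.1% of all genes called lower and 13.1% called higher. AHSP, the chaperone of free alpha chains, was at 10.7 to 14.6 CPM and differed by -0.02 ± 0.14. The other globins, such as CYGB, summed to 0.109 to 0.636 CPM over 4 genes, and neither of the 2 tested was called in any comparison.

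No gene of the erythroid, megakaryocyte, granulocyte and monocyte or lymphocyte marker lists was called between plasmids. By replicate number, the megakaryocyte list had 1 marker higher (ITGA2B, 0.38 ± 0.11) and 1 lower (ITGB3, -0.46 ± 0.14) of 5 tested. The granulocyte and monocyte list and the lymphocyte list had none of 3 each. Of all genes tested, 29.2% were called. The summed megakaryocyte markers were at 93.3 to 109 CPM in replicate 1 and 90.4 to 107 CPM in replicate 2, with GP9 and GP1BB at 0.

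Outside the family, the genes whose pattern over the 6 libraries was most like that of the gamma sum were RAB5A, CREB1, RBM7, KPNA3 and TMOD3. Likeness was measured as the root mean square difference of centred log2 CPM among 10242 genes whose mean CPM reached 5, and was 0.0156 for RAB5A and 0.0259 for TMOD3, against a median of 0.241 over all these genes. For the alpha sum they were SLC2A13, METTL15, PLD6, DEPDC7 and NUP62, at 0.0653 for SLC2A13 and 0.0943 for NUP62, against a median of 0.316. For HBZ, a gene added to this search after its values were seen, the nearest 5 held NR1D1, VGF, NPRL3 and IDI1, at 0.0822 for NR1D1 and 0.167 for NPRL3, against a median of 0.473. The alpha cluster neighbour NPRL3 was thus among the 5 genes nearest to HBZ.

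Promoter sequences from RefSeq (GRCh38.p14) matched 2 of the 10 members, HBD and HBM. The windows, 250 bases before to 50 after the transcript start, were searched on both strands for CACGTG, the E-box to which MYC, MAX and MXD proteins bind, and for 4 motifs of erythroid promoters. These were AGATAA, which GATA factors bind, the KLF1 motif CACACCC, the NF-Y motif CCAAT and TGACCA, which BCL11A binds. CACGTG was in neither, and in 7.26% of 35116 promoters. HBD held CCAAT at -153 and AGATAA, on the reverse strand, at -78 from the start, motifs found in 34.61% and 10.33% of all promoters. HBM held none of the 5. The HBD sequence is shown because HBD was among the members that were lower in replicate 2, and the capitals mark both matches.
HBD, upstream bases (GRCh38.p14, chr11:5234484-5234733, minus strand): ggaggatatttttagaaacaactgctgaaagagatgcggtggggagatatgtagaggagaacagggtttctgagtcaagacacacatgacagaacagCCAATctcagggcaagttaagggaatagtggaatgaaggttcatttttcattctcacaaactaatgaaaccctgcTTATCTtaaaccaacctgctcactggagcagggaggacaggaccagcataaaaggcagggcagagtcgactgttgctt
A match describes these letters and does not show that a factor was bound.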

How the data were processed

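Poly A RNA libraries of K562 cells, 2 for each of EV, MXD3 and STIM1::MXD3, were read as pairs, with hg19 as the reference. The authors deposited raw counts per NCBI Gene identifier, 1 table per library, with no normalisation. The submitters' processing notes name HISAT2 2.2.1 and featureCounts 2.0.1, and the study also names DRAGEN. How shared reads, read pairs and strand were counted is not given in the sources used here. Of 25702 identifiers, 23696 (92.2%) were matched to a symbol.

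Groups and replicate numbers came from the labels. Genes were kept with filterByExpr (15431 genes), scaled by TMM and tested in edgeR 4.0.16 (R 4.3.3) by its two-sided quasi-likelihood test, in 1 fit over 6 libraries with 1 coefficient per group. Benjamini-Hochberg adjustment ran over every gene tested, and an adjusted p under 0.05 was called. CPM values are TMM-scaled, and log2 differences within a replicate number used a prior count of 2. Each pair of copies was also tested as its sum in the same way. Levels per kb used the mRNA length of the reference transcript in GRCh37 with GENCODE annotation.

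The other settings tried were DESeq2 1.42.0, a replicate block, no filter, no TMM scaling, scaling without globin and mitochondrial genes, GC content and exon length offsets, and leaving out each library. Counts divided by 2 and fits of only the 4 libraries compared were also tried, and neither changed a globin call in a plasmid comparison. The comparison of replicate numbers and the offsets with a block were added after the data were seen. The scripts were tested on simulated counts. All members and lists were chosen with earlier results of these data known. Named genes were the 10 members, in each regulator list the 4 with the highest mean CPM and any called, and the 5 genes most like each summed pair, and others are marked. OR52Z1 and BGLT3 of the beta cluster list were not analysed here. Some genes that these rules would name are not reported here.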

Additional observations from a re-analysis of the deposited data

How the results depend on the processing

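No globin gene was called by the unpaired edgeR fit in a plasmid comparison, and this held under DESeq2, without the filter on low counts, without TMM scaling, with scaling on other genes, with GC content and length offsets and with any 1 library left out. The fit with the replicate number as a block differed. With the replicate block, 1 globin gene instead of 0 was called in MXD3 against EV (0.292% of all genes were, by edgeR), HBZ, at 0.40 ± 0.08 (edgeR adjusted p = 0.0482), by DESeq2 with the block (0.40 ± 0.09, adjusted p = 0.00149), and with GC content and length offsets and the block (0.44 ± 0.08, adjusted p = 0.0222). The block changed no other globin call. DESeq2 with the block gave no adjusted p for HBD and HBB in any plasmid comparison, so neither could be called there. In STIM1::MXD3 against MXD3 it also gave none for HBZ, HBA1, HBA2, HBQ1 and the alpha sum. In edgeR with the block, unadjusted p was also under 0.05 for HBA1 in MXD3 against EV (0.0131) and HBZ in STIM1::MXD3 against EV (0.0394). In STIM1::MXD3 against MXD3 it was so for HBA1 (0.00423), HBZ (0.0126) and HBG1 (0.0475). Adjusted p was 0.228 or more for all of these. The share of all genes with such an unadjusted p with the block is not given here. The groups share only a number in the labels. Deviations of same-numbered libraries correlated across 15431 genes with r of 0.364 for STIM1::MXD3 and EV, 0.270 for MXD3 and EV and 0.450 for STIM1::MXD3 and MXD3, and across the 10250 genes with a mean CPM of 5 or more with r of 0.707, 0.621 and 0.792. The calls over all genes, 1 for STIM1::MXD3 against EV, 1 for MXD3 against EV and 0 for STIM1::MXD3 against MXD3, became 3, 45 and 1 with the block, 29, 243 and 11 with DESeq2 and the block, 4, 92 and 1 with the offsets and the block, and 3, 3 and 1 with DESeq2. Without the filter they were 2 and 1 for STIM1::MXD3 against EV and against MXD3.

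Estimates near 0 changed sign. In STIM1::MXD3 against EV, the alpha sum was -0.044 with the block, -0.052 with DESeq2 and the block and -0.021 with the offsets and the block, and HBA2 was -0.0030 with DESeq2 and the block. HBA1 was 0.00083 without the filter, 0.0036 without TMM scaling, 0.00017 with scaling on other genes and 0.051 with the offsets. HBQ1 was 0.0053 without TMM scaling, 0.068 with the offsets and 0.055 with the offsets and the block, where HBE1 was -0.012. In STIM1::MXD3 against MXD3, HBG2 was -0.0089 with the block, -0.013 with DESeq2 and the block, -0.034 without TMM scaling, -0.054 with the offsets and -0.074 with the offsets and the block.

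With 1 library left out, a lone sample was assumed to vary like the other groups, and no globin gene was called. In STIM1::MXD3 against EV the estimates ran from -0.34 to 0.68 for HBZ, -0.77 to 0.56 for HBA1, -0.33 to 0.29 for HBA2, -0.14 to 0.12 for HBQ1, -0.18 to 0.22 for HBE1, -0.50 to 0.40 for HBG1, -0.40 to 0.16 for HBG2, -0.60 to 0.59 for HBD, -0.48 to 0.37 for HBA1+HBA2 and -0.42 to 0.19 for HBG1+HBG2. In MXD3 against EV the estimates ran from -0.10 to 0.91 for HBZ, -0.38 to 0.89 for HBA1, -0.23 to 0.56 for HBG1, -0.27 to 0.066 for HBG2, -0.54 to 0.21 for HBD and -0.26 to 0.13 for HBG1+HBG2. In STIM1::MXD3 against MXD3 the estimates ran from -0.76 to 0.29 for HBZ, -1.09 to 0.38 for HBA1, -0.55 to 0.068 for HBA2, -0.26 to 0.0023 for HBQ1, -0.30 to 0.10 for HBE1, -0.64 to 0.21 for HBG1, -0.31 to 0.26 for HBG2, -0.39 to 0.80 for HBD, -0.75 to 0.11 for HBA1+HBA2 and -0.37 to 0.25 for HBG1+HBG2. Estimates that kept their sign ran from 0.048 to 0.45 for HBA1+HBA2, 0.092 to 0.37 for HBA2, 0.032 to 0.20 for HBE1, 0.010 to 0.22 for HBQ1 and -0.90 to -0.20 for HBB in MXD3 against EV, where the calls over all genes ran from 1 to 2. For replicate 2 against replicate 1, calls over all genes ran from 2580 to 4424, globin calls from 5 to 7, and HBA2 from -0.28 to 0.19. Without TMM scaling, HBE1 (-0.15, adjusted p = 0.0846) and HBQ1 (-0.16, adjusted p = 0.173) lost their calls. The cause of these changes was not tested. With 2 libraries per group, small changes could not be called, and HBM and HBB were limited by their few counts.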
